A study of Mus musculus with 15 samples.

Results

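The immediate early genes described here are 10 genes chosen by name, Fos, Fosb, Jun, Junb, Egr1, Ier2, Ier3, Atf3, Dusp1 and Zfp36, out of 22180 genes measured by a probe set with a single gene symbol. Each of the 10 was measured by 1 probe set annotated to it alone, so all members are accounted for. Total RNA came from the kidneys of mice aged about 6 months. Of these, 8 were Grhl1 knockout, called replicates 8 to 15 here, and 7 were wild type, called replicates 1 to 7. The product of Grhl1 is a transcription factor of the grainyhead family, and the comparison asks how kidney transcripts differ when it is lost. The sources used here do not give strain, sex, the deleted part of the gene, or the time and manner of tissue collection. Values are on the log2 scale, 1 summary for each probe set. Each genotype difference subtracts the wild-type mean, and group values are means ± SD with n = 8 knockout and n = 7 wild-type kidneys. In whole tissue, fewer cells of a type and less RNA per cell cannot be told apart.

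Immediate early genes are switched on within minutes of a stimulus, without new protein synthesis, when kinase cascades reach transcription factors such as SRF with its ELK partners and CREB that already sit at their promoters. FOS, FOSB, JUN and JUNB pair into the AP-1 transcription factor, EGR1 and ATF3 are further transcription factors, and DUSP1 and ZFP36 close the loop, the first by dephosphorylating MAP kinases and the second by destabilising AU-rich mRNAs. In the kidney these genes are known to rise sharply after ischaemia and reperfusion, and in many tissues they respond to dissection and dissociation.

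The promoters of 4 members are shown as examples. Dusp1 had the smallest p-value between genotypes, Jun and Ier3 the closest relation to each other, and Fos gives the FOS subfamily its name. The sequences are the 250 bases before the RefSeq start of each gene in GRCm38.p6, 5′ to 3′ on the gene's strand. Dusp1 lies at chr17:26508473-26508722 on the minus strand, Fos at chr12:85473640-85473889 on the plus strand, Jun at chr4:95052223-95052472 on the minus strand and Ier3 at chr17:35821463-35821712 on the plus strand. Capitals mark TGACGTCA, the cyclic AMP response element, in Dusp1, its shorter core TGACG in Fos, TGACATCA, the AP-1 site variant known from the JUN promoter, in Jun, and GGAATTTCC, a form of the NF-kB site, in Ier3.
Dusp1: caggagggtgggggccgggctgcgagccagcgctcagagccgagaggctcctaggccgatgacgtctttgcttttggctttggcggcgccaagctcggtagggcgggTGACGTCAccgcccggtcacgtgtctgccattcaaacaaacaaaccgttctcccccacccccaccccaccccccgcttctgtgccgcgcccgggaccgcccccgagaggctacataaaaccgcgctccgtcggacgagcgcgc
Fos: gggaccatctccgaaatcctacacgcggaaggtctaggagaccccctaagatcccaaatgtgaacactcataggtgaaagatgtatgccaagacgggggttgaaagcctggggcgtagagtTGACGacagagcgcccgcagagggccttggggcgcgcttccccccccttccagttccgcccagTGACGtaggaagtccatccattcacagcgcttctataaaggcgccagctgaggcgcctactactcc
Jun: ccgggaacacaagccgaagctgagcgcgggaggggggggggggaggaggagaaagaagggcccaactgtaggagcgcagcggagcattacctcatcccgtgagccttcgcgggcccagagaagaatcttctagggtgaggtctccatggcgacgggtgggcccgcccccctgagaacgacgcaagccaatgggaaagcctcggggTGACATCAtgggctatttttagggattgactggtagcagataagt
Ier3: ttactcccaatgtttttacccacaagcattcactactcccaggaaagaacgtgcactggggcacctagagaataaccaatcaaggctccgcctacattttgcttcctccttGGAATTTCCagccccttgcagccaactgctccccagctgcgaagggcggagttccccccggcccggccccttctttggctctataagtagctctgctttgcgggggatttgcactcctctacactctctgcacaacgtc
Promoters were available for 8 of the 10 members, all but Egr1 and Ier2, and both strands were searched. TGACGTCA was present in 1 of the 8, Dusp1, and in 1.55% of all 32851 promoter windows of this length. Its core TGACG, which TGACGTCA contains on both strands, was present in 5 of the 8 (Fos, Fosb, Junb, Atf3 and Dusp1) and in 17.8% of all windows. TGACATCA was found in Jun alone among the 8, starting 45 bases before the gene, and in 2.93% of all windows, and GGAATTTCC in Ier3 alone and in 0.286%. The TATA box TATAAA was found in Fos alone, against 12.4% of all windows, a CArG box, the site of SRF, in Zfp36 alone, against 1.47%, and the AP-1 site TGANTCA in 0 of the 8, against 6.75%. These matches describe the letters of the windows only. Sites farther than 250 bases before the start, and any site of Egr1 or Ier2, were not searched.

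The kidneys differed in ways that crossed the genotypes and bear on values below. Y-linked transcripts were low in 5 kidneys, knockout replicates 13, 14 and 15 and wild-type replicates 6 and 7, and present in the other 10, 5 of each genotype. Transcripts of liver or adrenal cortex, defined by a list mean over 1 log2 unit above the median kidney, were found in 7 kidneys, 4 knockout (replicates 10 to 13) and 3 wild type (replicates 2, 3 and 7). Genes that mark the proximal tubule averaged 12.3 to 12.4 in knockout and 12.2 to 12.4 in wild-type kidneys. Grhl1 itself, whose probe set may or may not lie in the deleted part, was at 4.70 ± 0.16 in knockout and 5.09 ± 0.10 in wild-type kidneys, without overlap (difference -0.38, SE 0.07, exact permutation p = 0.000311, limma adjusted p = 0.113).

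Between genotypes, the immediate early genes showed no difference that passed the test. In limma over 23521 probe sets, 0 of the 10 members had a Benjamini-Hochberg adjusted p under 0.05, where 0.0128% of all probe sets did, and 1 member, Dusp1, had an unadjusted p under 0.05, where 5.55% of all did. The groups overlapped for each of the 10, where 0.123% of all probe sets separated them. The difference was below 0 for 8 of 10 members, against 45.4% of all probe sets, with a median of -0.067 over the members and 0.0083 over all probe sets. This count rests on small differences, since 4 of 10 were below 0 without the 7 kidneys with liver or adrenal transcripts, and 7 with each array centred on its median. The widest interval of a difference was that of Egr1, from -0.48 to 0.33, and the narrowest that of Junb, from -0.17 to 0.055.

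**Figure D1:**
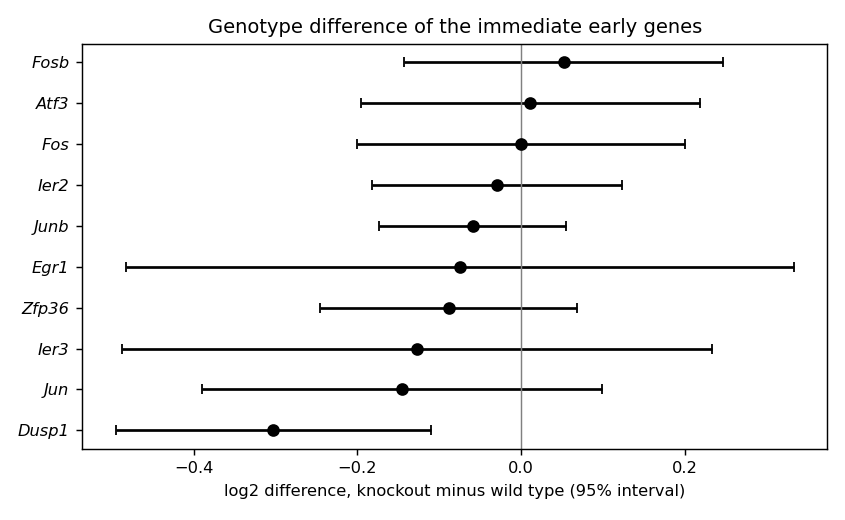
Log2 difference between 8 knockout and 7 wild-type kidneys for each of the 10 immediate early genes (points, horizontal axis), with the 95% interval of the limma fit (bars). The interval of Dusp1, from -0.49 to -0.11, lies below 0, and the other 9 intervals include 0.

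Dusp1, the MAP kinase phosphatase, was the member with the largest difference. It read 9.31 at the lowest, 9.56 at the median and 9.88 at the highest in knockout kidneys, against 9.61, 9.80 and 10.1 in wild-type kidneys. In 5 of the 8 knockout kidneys it lay below every wild-type kidney, while knockout replicate 12 (9.88) lay among the higher wild-type values. Of those 5, knockout replicate 9 (9.6064) was nearly level with the lowest wild-type kidney, replicate 5 (9.6072). The means were 9.57 ± 0.18 in knockout and 9.87 ± 0.19 in wild-type kidneys, a difference of -0.30 (SE 0.09, 95% interval -0.49 to -0.11, 1.23-fold). The exact two-sided permutation p over 6435 splits was 0.00917, and the limma adjusted p over all probe sets was 0.610. Over 26 alternatives the difference lay between -0.36 and -0.26, with adjusted p from 0.328 to 0.991. Alternatives that change only the moderation, the probe sets tested or the test leave it at -0.30 by construction. Averaging the probe sets of a gene does so too. Within the 10 kidneys with Y-linked transcripts it was -0.27 and within the 5 without them -0.36.

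Heat shock chaperone genes, which help refold stressed proteins, had lower means in knockout kidneys, as Dusp1 did. The mean of the 10 genes listed was 9.01 ± 0.11 in knockout kidneys (8.82 to 9.19) and 9.51 ± 0.30 in wild-type kidneys (9.13 to 9.96). All 10 were below 0 in difference, against 45.4% of all probe sets, and 7 had an unadjusted p under 0.05, against 5.55%. The list was chosen with earlier results of these data known, so these counts are no independent check. For 2 of the 10, Hspa1b and Hspa8, the genotypes did not overlap, against 0.123% of all probe sets, and 0 passed in limma. The inducible HSP70 gene Hspa1b differed by -1.47 (SE 0.31, limma adjusted p = 0.244) and Hspa1a by -1.15 (SE 0.27, limma adjusted p = 0.361), and the constitutive HSC70 gene Hspa8 by -0.23 (SE 0.05, limma adjusted p = 0.222). Dusp1 followed the chaperone mean over the 15 kidneys with Pearson r = 0.64 (permutation p = 0.00945) and Spearman rho = 0.62 (permutation p = 0.0160), which missed the threshold over the 80 relations computed (adjusted p = 0.173 and 0.320). The r was 0.61 without wild-type replicates 2 and 3, the kidneys farthest from the median chaperone mean, 0.70 within the 10 kidneys with Y-linked transcripts (permutation p = 0.0268), and 0.27 with both measures centred on their genotype means. Their part in the Dusp1 values was not tested.

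Among the AP-1 genes, Fos and Fosb were dim and nearly level. Fos, on chromosome 12, read 5.15, 5.29 and 5.63 at the lowest, median and highest knockout kidney, against 5.03, 5.27 and 5.60 in wild type. Its mean was 5.31 in both groups (SD 0.16 in knockout, 0.22 in wild type), a difference of -3.7e-05 with a 95% interval from -0.20 to 0.20, so that a mean change beyond 1.15-fold either way lies outside the interval. Of all probe sets, 36.3% had a lower mean than Fos, and the values of dim probe sets are compressed toward background. Fosb read 5.10, 5.34 and 5.70 in knockout against 5.02, 5.30 and 5.50 in wild-type kidneys, a difference of 0.05 (SE 0.09, limma adjusted p = 0.997). Knockout replicate 8 was the highest of all 15 kidneys for Fos and Fosb, and wild-type replicate 4 the lowest, 1.52-fold apart for Fos and 1.60-fold for Fosb. No kidney stood far above the others in Fos.

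Jun and Junb, the JUN partners of FOS, were brighter. Jun read 8.73, 9.06 and 9.48 in knockout against 8.80, 9.25 and 9.50 in wild-type kidneys, with means of 9.08 ± 0.23 in knockout and 9.22 ± 0.25 in wild-type kidneys (difference -0.15, SE 0.12, limma adjusted p = 0.979). Without the kidneys with liver or adrenal transcripts the difference of Jun was 0.013. Junb varied least of all members, from 7.60 to 7.97 in knockout and 7.73 to 7.89 in wild-type kidneys, a difference of -0.059 (SE 0.054, limma adjusted p = 0.984). Its SD over the 15 kidneys, 0.098, was above that of 19.0% of genes, while the SD of Jun, 0.24, was above that of 85.0%.

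Egr1, a zinc finger factor that SRF induces, had the widest spread. In wild-type kidneys it reached from 5.33 in replicate 4 to 7.22 in replicate 7, against 5.91 to 6.29 in knockout kidneys, so that the whole knockout range fell inside the wild-type one. The SD was 0.12 in knockout and 0.58 in wild-type kidneys, and the mean was 6.17 in knockout and 6.24 in wild-type kidneys (difference -0.075, SE 0.19, limma adjusted p = 0.997). Without the kidneys with liver or adrenal transcripts the difference was 0.20. The highest and lowest of the 15 kidneys were 3.70-fold apart. Wild-type replicate 7, the highest, was also the kidney with the highest mean of liver genes. The relation of Egr1 to the liver list (r = 0.70, permutation p = 0.00713, adjusted p = 0.173, rho = 0.51 with permutation p = 0.0540) rested on the 2 kidneys farthest from the median, wild-type replicate 7 and knockout replicate 10, since r was 0.28 without them.

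Ier3, an early gene that modulates survival signalling, spread most in knockout kidneys. It read 8.72, 9.26 and 10.1 at the lowest, median and highest knockout kidney, against 9.25, 9.54 and 9.77 in wild type, with an SD of 0.46 in knockout and 0.17 in wild-type kidneys. Knockout kidneys held both ends of the range, with 4 of 8 below every wild-type kidney and replicates 13 and 15 above all of them. On average it was at 9.40 in knockout and 9.53 in wild-type kidneys (difference -0.13, SE 0.17, limma adjusted p = 0.997), and the difference was 0.096 without the kidneys with liver or adrenal transcripts. Leaving out 1 kidney moved it between -0.22 (without knockout replicate 15) and -0.030 (without knockout replicate 10).

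The remaining members did not pass either. Ier2, the dimmest, read 4.54 to 5.04 in knockout and 4.75 to 4.89 in wild-type kidneys (difference -0.029, SE 0.072, limma adjusted p = 0.997). Atf3, a stress-induced factor of the CREB family, read 5.83 to 6.51 in knockout and 5.82 to 6.44 in wild-type kidneys (difference 0.011, SE 0.098, limma adjusted p = 0.998). Zfp36, which encodes the mRNA decay factor tristetraprolin, read 8.79 to 9.08 in knockout and 8.84 to 9.36 in wild-type kidneys (difference -0.088, SE 0.074, limma adjusted p = 0.984). Its highest value, 9.36, was that of wild-type replicate 6. The intervals of the difference reached from -0.18 to 0.12 for Ier2, from -0.20 to 0.22 for Atf3 and from -0.25 to 0.069 for Zfp36.

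**Figure D2:**
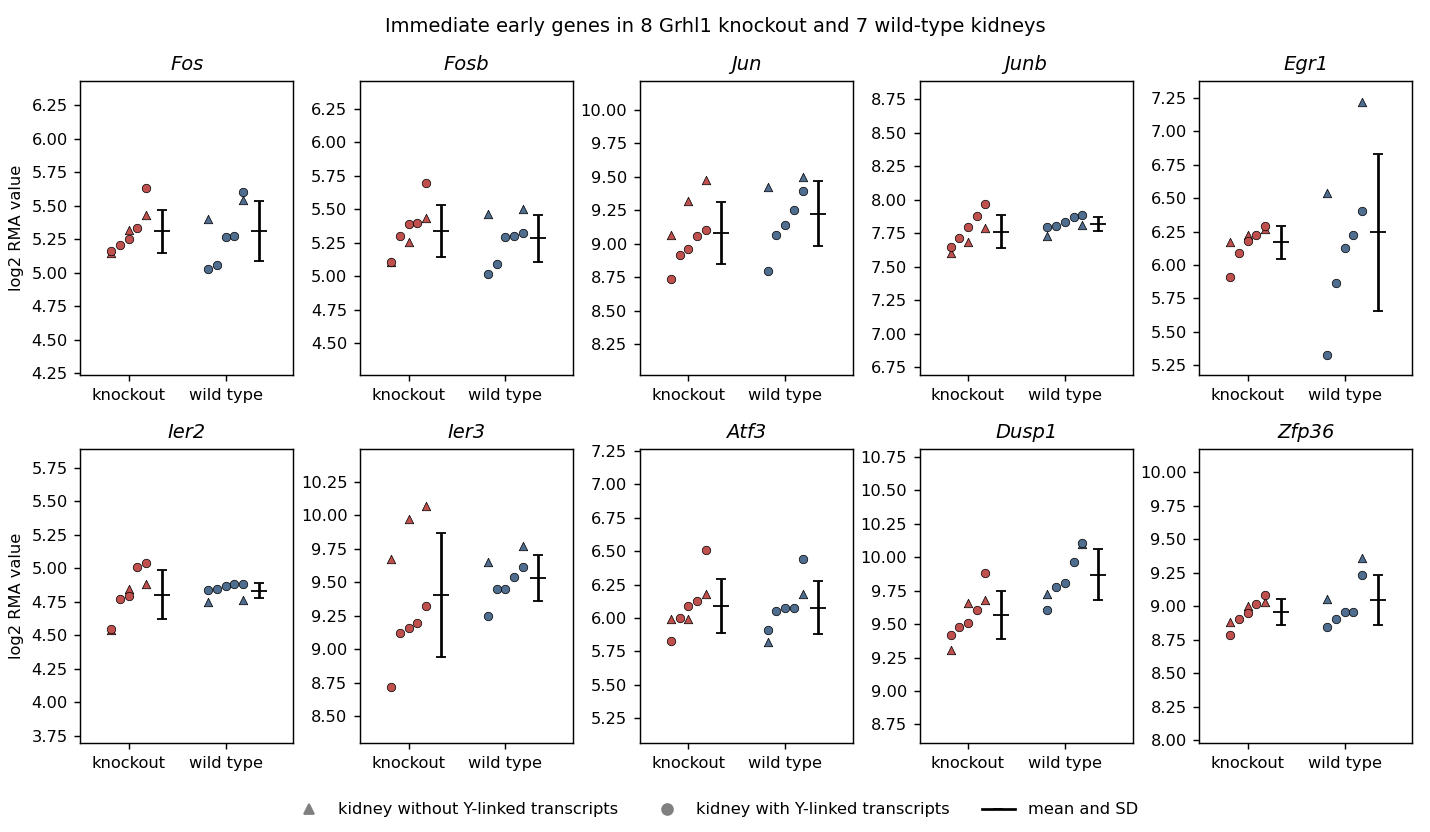
Log2 values (vertical axes, each spanning the same number of log2 units) of the 10 immediate early genes in 8 knockout and 7 wild-type kidneys, with triangles for the 5 kidneys without and circles for the 10 with Y-linked transcripts, and mean and SD as bars. Dusp1 sits lower in most knockout kidneys, the wild-type kidneys spread widely for Egr1 and the knockout kidneys for Ier3.

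In 0 of the 15 kidneys were all 10 members above their own means. Wild-type replicates 2 and 7 had 9 of 10 members above the members' own means, and knockout replicate 9 had 1. Wild-type replicate 6 was among the 3 highest kidneys for 6 members (Fos, Fosb, Jun, Egr1, Dusp1 and Zfp36) but among the 3 lowest for Ier2 and Atf3. Knockout replicate 11 was among the 3 lowest kidneys for 6 members (Jun, Egr1, Ier3, Atf3, Dusp1 and Zfp36) but among the 3 highest for Junb. The mean departure of the members from their own means lay between -0.14 and 0.080 log2 units in knockout kidneys and between -0.21 and 0.20 in wild-type kidneys.

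**Figure D3:**
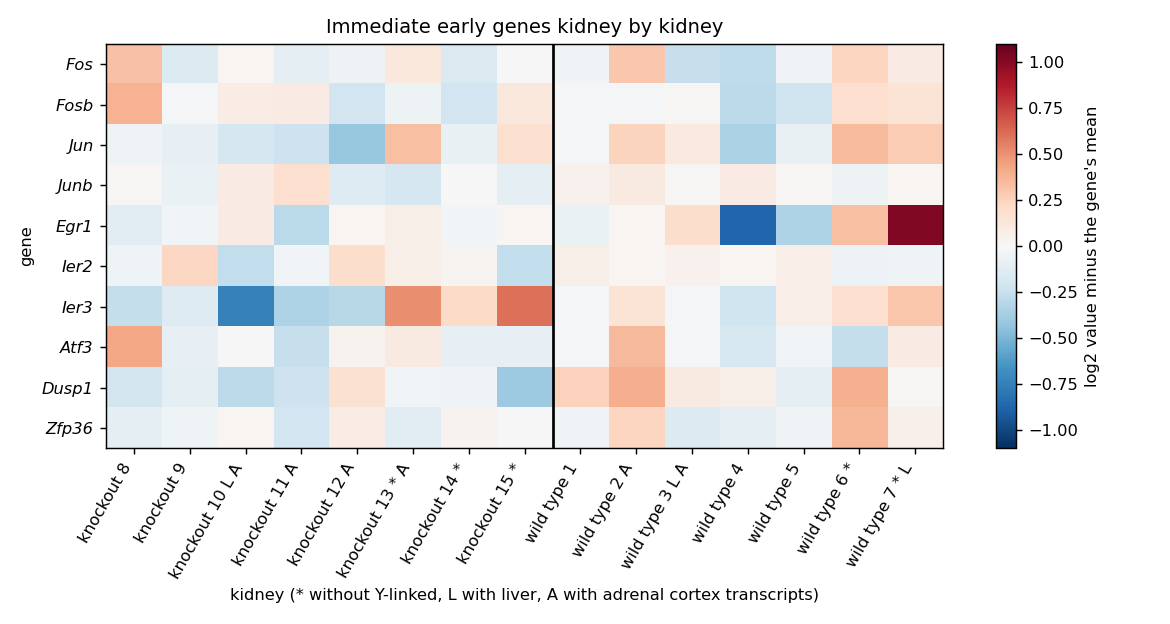
Departure of each immediate early gene (rows) from its own mean over 15 kidneys, in log2 units, for the 8 knockout (left) and 7 wild-type kidneys (right). No column is red throughout, and the strongest departures are those of Egr1 in wild-type replicates 4 and 7 and of Ier3 in knockout replicates 10 and 15.

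Pairs of members followed each other loosely from kidney to kidney. Of the 45 pairs, 30 had a Pearson r above 0, with a median of 0.13. In 7 pairs the permutation p was under 0.05, and 0 pairs passed after adjustment over the 45, the smallest adjusted p being 0.0715. That pair was Jun and Ier3, with r = 0.74 (permutation p = 0.00159) and rho = 0.79 (permutation p = 0.000820, adjusted p = 0.0369, which passed), r = 0.70 without wild-type replicate 6 and knockout replicate 13, and r = 0.61 within the 10 kidneys with Y-linked transcripts (permutation p = 0.0599). Fos and Fosb had r = 0.64 (permutation p = 0.00957, adjusted p = 0.144) and rho = 0.59 (permutation p = 0.0232), r = 0.58 without wild-type replicate 2 and knockout replicate 8, and r = 0.60 within the 10 kidneys with Y-linked transcripts (permutation p = 0.0670). Of the other genes, 0.266% had a higher r with Fos than Fosb did. With Jun, 0.564% had a higher r than Ier3 did and 3.60% a higher r than Egr1 did.

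Relations of Fos with Atf3 and of Dusp1 with Zfp36 over the 15 kidneys rested on the 2 kidneys farthest from the median. Fos and Atf3 had r = 0.61 (permutation p = 0.0149, adjusted p = 0.147) and rho = 0.57 (permutation p = 0.0300), but r = 0.13 without wild-type replicate 2 and knockout replicate 8. Within the 10 kidneys with Y-linked transcripts, which include both of these, r was 0.88 (permutation p = 0.00341), and it was 0.51 in the 8 kidneys without liver or adrenal transcripts. Dusp1 and Zfp36, the genes of the feedback arm, had r = 0.60 (permutation p = 0.0164, adjusted p = 0.147) and rho = 0.41 (permutation p = 0.129), but r = 0.10 without wild-type replicates 2 and 6, and 0.59 within the 10 kidneys with Y-linked transcripts (permutation p = 0.0689). Jun and Egr1 had r = 0.63 (permutation p = 0.00770, adjusted p = 0.144) and rho = 0.63 (permutation p = 0.0136), with 0.64 without wild-type replicate 6 and knockout replicate 13 and 0.48 within the kidneys with Y-linked transcripts (permutation p = 0.161). Without wild-type replicate 6, 2 pairs passed after adjustment, Fos with Atf3 and Jun with Ier3. Fos, Fosb, Jun and Egr1 had r between 0.39 and 0.64 among themselves, while Junb had r from -0.49 to 0.08 with the other members.

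**Figure D4:**
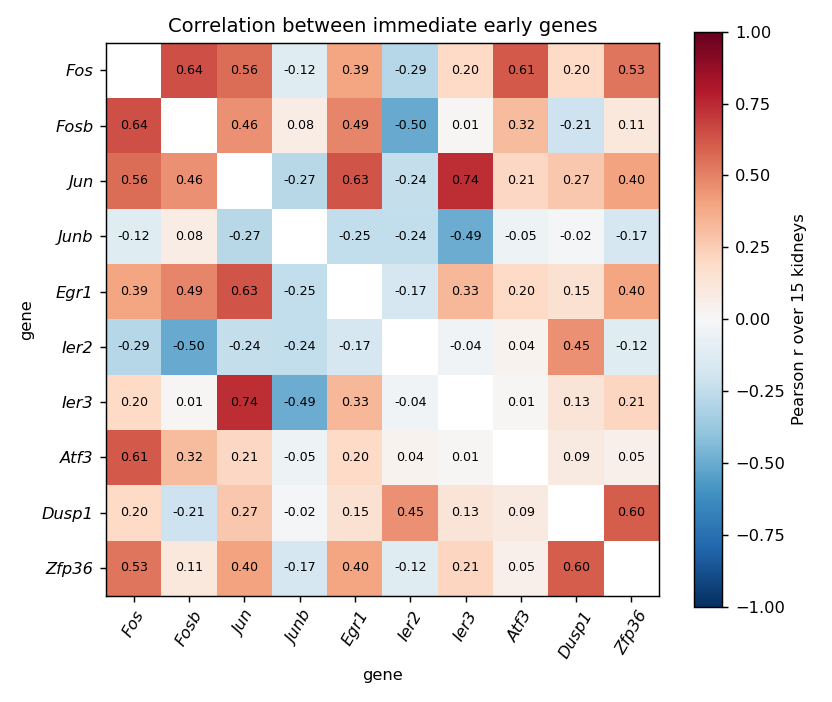
Pearson r over 15 kidneys for each pair of the 10 immediate early genes (both axes list the genes, colour and printed value give r). Fos, Fosb, Jun and Egr1 are positively related to each other, and Junb and Ier2 are near 0 or below for most partners.

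Jun and Ier3 were higher in kidneys without Y-linked transcripts. Ier3 read 9.97, 9.67 and 10.1 in knockout replicates 13, 14 and 15 and 9.65 and 9.77 in wild-type replicates 6 and 7, the kidneys low in Y-linked transcripts. It read 8.72, 9.28 and 9.62 at the lowest, median and highest of the 10 kidneys with them. It averaged 9.83 ± 0.19 without and 9.28 ± 0.26 with Y-linked transcripts, and with genotype in the fit the difference was 0.56 (SE 0.12, limma adjusted p = 0.00197). Jun read 9.48, 9.07 and 9.32 in the same 3 knockout and 9.50 and 9.43 in the same 2 wild-type kidneys, against 8.73, 9.06 and 9.40 at the lowest, median and highest kidney with Y-linked transcripts. The kidneys overlapped for Jun, and the difference was 0.33 (SE 0.09, limma adjusted p = 0.0134). These were 2 of the 10 members, both higher, where 24.9% of all probe sets passed and 14.4% passed in the higher direction, so the share of members is near the background. Both calls held in each of the 15 fits that left out 1 kidney, with adjusted p up to 0.00771 for Ier3 and 0.0432 for Jun. Egr1 differed by 0.43 (SE 0.18, limma adjusted p = 0.0938), a difference that was 0.23 without wild-type replicate 7 (limma adjusted p = 0.353), and the other 7 members had adjusted p of 0.225 or more.

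Markers of several cell types moved with the same split of the kidneys, as did many other genes. Of all probe sets, 14.4% passed higher and 10.6% lower without Y-linked transcripts. Of the 6 neutrophil and 5 skeletal muscle genes, 0 passed. The 5 genes of vascular smooth muscle averaged 8.15 to 8.39 in kidneys without and 7.87 to 8.16 in kidneys with Y-linked transcripts, and 3 of the 5 passed higher. Macrophage genes averaged 7.49 to 7.91 without and 7.23 to 7.52 with Y-linked transcripts, with 3 of 6 higher. Endothelial genes averaged 9.86 to 9.98 without and 9.68 to 9.85 with them, again with 3 of 5 higher. The 4 genes of the thick ascending limb, a segment of the distal tubule, averaged 11.4 to 11.5 without and 11.1 to 11.3 with Y-linked transcripts, and all 4 passed higher. Adipocyte genes averaged 7.85 to 8.39 without and 7.31 to 7.95 with Y-linked transcripts, with 3 of 5 higher. The proximal tubule mean was 12.23 to 12.32 without and 12.33 to 12.42 with them, with 1 of 6 genes passing higher and 1 lower. Of the 80 relations between a member and a list mean, 1 passed after adjustment, that of Ier3 with the smooth muscle list (r = 0.80, permutation p = 0.000410, adjusted p = 0.0328, rho = 0.81 with permutation p = 0.000460 and adjusted p = 0.0368). It was 0.86 without wild-type replicate 1 and knockout replicate 13, and 0.50 within the 10 kidneys with Y-linked transcripts (permutation p = 0.137). This relation missed the threshold when wild-type replicate 4 or knockout replicate 10, 11, 13, 14 or 15 was left out (adjusted p from 0.0528 to 0.118). The part of these cell types in the levels of Ier3 and Jun was not tested.

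**Figure D5:**
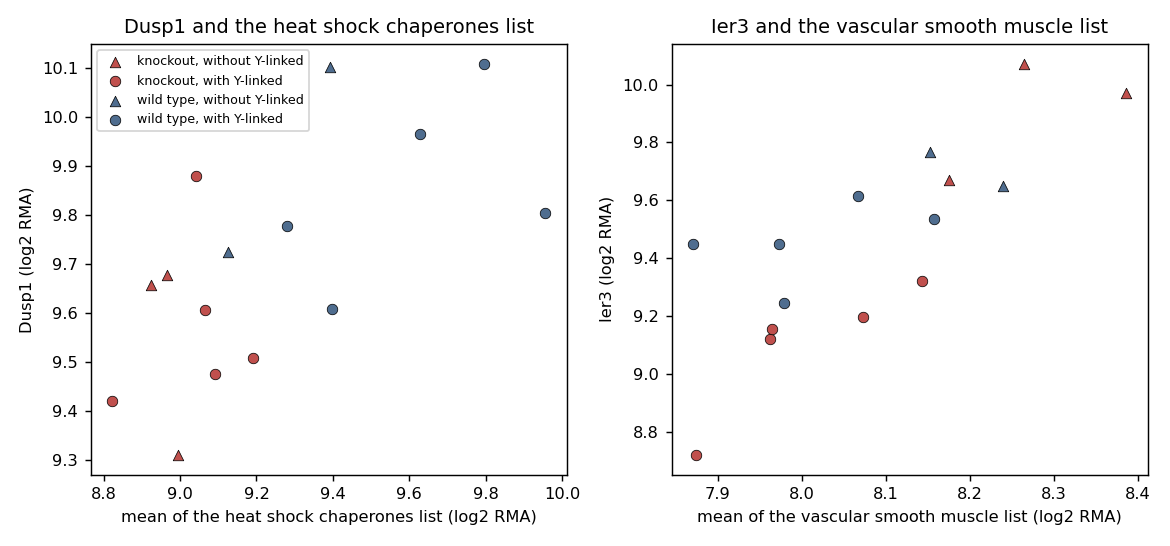
Left, Dusp1 (vertical axis, log2) against the mean of the heat shock chaperone genes (horizontal axis, log2), and right, Ier3 against the mean of the vascular smooth muscle genes, each point 1 kidney. On the left the knockout kidneys lie at chaperone means of 8.82 to 9.19 and the wild-type kidneys at 9.13 to 9.96, and on the right the 5 kidneys without Y-linked transcripts (triangles) have the highest Ier3 values.

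The genotype difference of the members was also compared between kidneys without and with Y-linked transcripts. The interaction term passed for 0 members in limma, as for 0% of all probe sets, and 3 members had an unadjusted p under 0.05, where 7.04% of all probe sets did. Leaving out wild-type replicate 6 or 7 leaves 1 wild-type kidney without Y-linked transcripts. For those fits only effect sizes are given, since their calls would turn on that kidney. For Egr1 the knockout minus wild-type difference was -0.66 without and 0.15 with Y-linked transcripts (interaction -0.80, SE 0.30, unadjusted p = 0.0194, limma adjusted p = 0.628). The Egr1 interaction moved to -0.46 with wild-type replicate 7 left out, and to -1.14 with replicate 6 left out instead. For Ier3 it was 0.20 without and -0.36 with them (interaction 0.55, SE 0.19, unadjusted p = 0.0117, limma adjusted p = 0.609). For Fosb it was -0.22 without and 0.17 with them (interaction -0.39, SE 0.18, unadjusted p = 0.0451, limma adjusted p = 0.702). The kidneys without Y-linked transcripts are 3 knockout and 2 wild type, which limits the precision of these terms.

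Other genes of the pathway did not pass between genotypes either. Of the 9 other AP-1 and bZIP factors measured, 6 were below 0 in difference, against 45.4% of all probe sets, with a median of -0.052. In limma 0 of them passed, and 3 had an unadjusted p under 0.05, against 5.55% of all probe sets. These were the small MAF protein gene Mafk (0.19, SE 0.07, limma adjusted p = 0.738), Atf4 (-0.14, limma adjusted p = 0.826) and the haem-sensing repressor gene Bach1 (-0.11, limma adjusted p = 0.894). Among 17 other immediate early transcription factors, 0 passed, 13 were below 0, against 45.4% of all probe sets, and the median was -0.050. Lowest by unadjusted p were Nfil3 at -0.44 (SE 0.17, limma adjusted p = 0.766), Bhlhe40 at -0.18 (limma adjusted p = 0.851) and Maff at -0.17 (limma adjusted p = 0.933). Nfil3 and Bhlhe40 are also known as clock-controlled genes. Of the 5 genes in phase with Bmal1, Nfil3 among them, 0 passed. All 5 were below 0, against 45.4% of all probe sets, with a median of -0.33. An unadjusted p under 0.05 was found for 2 of them, against 5.55% of all probe sets. Cry1 was at -0.33 (limma adjusted p = 0.761) and Arntl, the gene of BMAL1, at -0.37 (limma adjusted p = 0.953).

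Feedback and effector genes and the upstream kinases did not pass either. Of 30 feedback and effector genes, 0 passed, 22 were below 0, against 45.4% of all probe sets, and the median was -0.073. They were led by Ccn2, a matricellular growth factor gene (-0.30, SE 0.10, limma adjusted p = 0.672), Gadd45g (-0.50, SE 0.23, limma adjusted p = 0.896) and the kinase gene Sgk1 (-0.27, SE 0.14, limma adjusted p = 0.937). Of 21 upstream kinases and factors, 0 passed, 13 were below 0, against 45.4% of all probe sets, and the median was -0.017. The smallest p was that of Creb1, which encodes a factor that binds the element shown for Dusp1. A relation of Creb1 to Dusp1 was not tested. Creb1 was at 9.20 ± 0.06 in knockout and 9.35 ± 0.10 in wild-type kidneys (difference -0.15, SE 0.05, limma adjusted p = 0.666, exact permutation p = 0.00497). The next were the MAP kinase kinase gene Map2k1 (0.14, limma adjusted p = 0.937) and Elk4 (0.081, limma adjusted p = 0.970).

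Of the 7 genes listed as targets and partners of ZFP36, which are cytokine, chemokine and prostaglandin synthesis genes, 0 passed and the median was 0.0084, with the chemokine gene Cxcl1 at -0.18 (limma adjusted p = 0.976), Il1b at -0.10 (0.980) and Il6 at 0.045 (0.997). Tubular injury genes had a median of 0.019 with 0 of 5 passing, among them Lcn2 at 0.21 (limma adjusted p = 0.947), Vcam1 at -0.18 (0.967) and Havcr1, the gene of kidney injury molecule KIM-1, at 0.18 (0.973). Hypoxia targets had a median of 0.047 with 0 of 9 passing, among them the prolyl hydroxylase gene Egln3 at 0.27 (limma adjusted p = 0.827), Pfkfb3 at 0.21 (0.950) and Car9 at 0.21 (0.976). Below 0 were 2 of the 7 ZFP36 genes, 2 of the 5 injury genes and 1 of the 9 hypoxia genes, against 45.4% of all probe sets.

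The genes whose pattern over the 15 kidneys was most like the mean of the 10 members, each centred and scaled first, were not immediate early genes from the lists. They were Ly6d (r = 0.85), Fgf11 (0.81), A730017L22Rik (0.81), Rps15a-ps2 (0.79), Ms4a14 (0.78), Gm14295 (0.78), Havcr2 (0.78), Rnpc3 (0.77), Cnot10 (0.77) and Clec2d (0.77), as a description over 15 kidneys that share 1 processing. Among the 83 other pathway genes the median r with that mean was 0.28 and 18 lay above 0.5, against a median of -0.017 and 644 of 22170 genes that are no member.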

How the data were processed

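Kidney total RNA (500 ng a sample, per the labels' protocols) was hybridised to 15 1-colour arrays. The log2 values were made by the authors with RMA, per the submitters' processing notes; the sources used here do not name the software version or the array's build. Signal over background is unknown because scanner files were not analysed here, and precision is set by the 15 arrays. Of 41345 probe sets, 23521 carried exactly 1 gene symbol, 1814 several and 16010 none. Symbols were updated by Entrez ID to RefSeq (GRCm38.p6) for 23328, and the probe set with the highest mean stood for a gene.

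Groups came from the sample titles. The labels do not name animals, so p-values measure the spread between these samples. Differences were fitted with limma 3.58.1 (lmFit and eBayes without trend, R 4.3.3) and adjusted by Benjamini-Hochberg over 23521 probe sets, with a threshold of 0.05, after the fit was tested on simulated data. Exact permutation tests of single genes cannot go below 0.000155. Correlations used 100000 resamples, two-sided. Y-linked transcripts were called from the mean of 3 Y-linked genes, at the midpoint of its range over the kidneys. The members and lists were chosen with earlier results of these data known. The genes named are the members, Grhl1, from each pathway or property list, where 0 passed, the 3 lowest by unadjusted p, and the 10 genes most like the members' mean. Alternatives covered moderation, array weights, centring, dim probe sets, all probe sets, a Y-linked covariate, subsets of kidneys, an exact rank-sum test and leaving out each kidney. Averaging the probe sets of a gene changes no member, since each has 1.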

Additional observations from a re-analysis of the deposited data

How the results depend on the processing

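No member passed between genotypes under the limma alternatives, including each of the 15 fits that left out 1 kidney (0 to 0). By the exact rank-sum test no probe set reached an adjusted p under 0.236, so it says nothing about the members. The count over all probe sets, 3, was 0 with dim probe sets left out, where 4 members could not be tested, and 0 by that rank-sum test. It was 7 with all probe sets of the table, 14 with the mean of Y-linked genes in the fit, 1 within the kidneys without Y-linked transcripts, 1 without those holding liver or adrenal transcripts, and 2 to 6 leaving out 1 kidney, with 6 without knockout replicate 8. Of the exact rank-sum results, 1152 had an unadjusted p under 0.05, as did 771 with dim probe sets left out.

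Several differences near 0 changed sign. With array weights Fos was at 0.020, Egr1 at 0.083 and Atf3 at -0.0036, and with each array centred on its median Fos was at 0.0037. Within the kidneys with Y-linked transcripts Fos was at 0.072 and Egr1 at 0.15, and within those without them Fosb was at -0.22 and Ier3 at 0.20. Without the kidneys holding liver or adrenal transcripts Fos was at 0.036, Jun at 0.013, Egr1 at 0.20 and Ier3 at 0.096. Leaving out 1 kidney, Fosb ranged from 0.00049 (without knockout replicate 8) to 0.088, Zfp36 from -0.12 to -0.035 (without wild-type replicate 6), Fos from -0.047 to 0.049, Egr1 from -0.23 to 0.087, Ier2 from -0.063 to 0.0083, Atf3 from -0.048 to 0.072, and the interaction of Jun from -0.093 to 0.11; the cause was not tested. The members passing for Y-linked transcripts stayed at 2 to 2. Members with a passing interaction stayed at 0 in the fits that kept both wild-type kidneys without Y-linked transcripts.

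Pairs of members past the threshold numbered 1 (Jun and Ier3) with each array centred on its median, and 0 to 2 leaving out 1 kidney. Relations to list means numbered 0 to 2, with 2 without knockout replicate 12, where Junb joined Ier3 in its relation to the smooth muscle list. No paired analysis was possible because the groups share no replicate number.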

Other observations

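Other immediate early and feedback genes also differed between kidneys without and with Y-linked transcripts, and the examples were chosen after their values were seen. Of 17 other immediate early transcription factors, 8 were higher and 1 lower without Y-linked transcripts in limma, where 14.4% of all probe sets passed higher and 10.6% lower. Id1, an inhibitor of basic helix-loop-helix factors, was at 7.36 ± 0.15 without and 6.78 ± 0.15 with Y-linked transcripts (n = 5 and 10, 1.49-fold, limma adjusted p = 7.93e-05), and Myc at 7.32 ± 0.16 without and 6.93 ± 0.22 with them (1.32-fold, limma adjusted p = 0.0122). Of 30 feedback and effector genes, 8 were higher and 1 lower. Cebpd, a transcription factor of the acute response, was at 6.11 ± 0.22 without and 5.37 ± 0.18 with Y-linked transcripts (1.69-fold, limma adjusted p = 3.74e-05), and the antiproliferative gene Btg2 at 8.08 ± 0.12 without and 7.61 ± 0.16 with them (1.39-fold, limma adjusted p = 0.000115). The gene that was lower was the MAP kinase phosphatase gene Dusp4, at 6.66 ± 0.15 without and 7.06 ± 0.17 with Y-linked transcripts (limma adjusted p = 0.00186). Upstream, Braf, a kinase of the MAP kinase cascade, was at 9.67 ± 0.07 without and 10.1 ± 0.04 with Y-linked transcripts (1.40-fold lower, limma adjusted p = 2.15e-07), with 4 of 21 upstream genes higher and 3 lower. Smooth muscle, macrophage, endothelial, thick ascending limb and adipocyte markers moved with the same split, and their part in these values was not tested.

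In 20 tests of a member within a genotype by Dixon's criterion, 0 found a kidney standing apart from its group.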
